A study of Mus musculus with 14 samples.

Results

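The mitochondrial ribosomal protein genes were taken as every gene whose symbol is Mrps or Mrpl followed by a number and at most a letter from a to c. The rule found 76 genes among the 38926 gene rows of the LSK and MyePro libraries, 29 with an Mrps symbol and 47 with an Mrpl symbol, and it used no measured value. Ensembl identifiers of 75 of them were found among the 39179 identifiers of the LT-HSC libraries, and none was matched for Mrpl33. Mrpl57 and Mrpl58 carry these symbols in the LT-HSC libraries only (they stand as Mrp63 and Ict1 in the others) and were left out of the set.

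RNA was sequenced from donor-derived bone marrow cells of mixed chimeras. DPY30, whose loss was studied, is a core subunit of the SET1 and MLL complexes that methylate lysine 4 of histone H3. All donor cells carried Mx1-Cre, whose promoter responds to interferon and its inducer pIpC in many cell types, so that deletion is not limited to blood cells of a given stage. Control donors were Mx1-Cre; Dpy30F/+ and knockout (KO) donors were Mx1-Cre; Dpy30F/-, with a floxed allele in both and a wild-type or a null allele beside it. Irradiated CD45.1+ recipients were given CD45.2+ donor marrow together with fewer competitor cells of CD45.1+ C57Bl/6J mice. Control and KO chimeras alike were injected 4 times with pIpC at 7.5 µg/g from week 7 after transplantation and were used 2 weeks after the last injection. The age of the chimeras is not given in the sources used here. LSK cells (lineage-negative, with stem cells and multipotent progenitors among them) and MyePro cells (myeloid progenitors, for which the labels give no gate) were pooled from 2 to 3 mice, with 1 library per genotype. Long-term hematopoietic stem cells (LT-HSC) were pooled from 7 to 9 mice in each of transplants 1 and 2, giving 2 control and 2 KO libraries, and their RNA was amplified before library preparation. P-values in LT-HSC therefore measure the spread between pools, and no LSK or MyePro difference has a replicate check.

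Depth ran from 6130320 gene counts in KO LSK up to 85499797 in the KO LT-HSC library of transplant 1. Dpy30 stood at 78.0 and 42.3 CPM (counts scaled to a common library size adjusted with TMM factors, the trimmed mean of M-values, unless library totals are named) in control and KO LSK and at 114 and 51.8 CPM in control and KO MyePro. In LT-HSC the controls had 12.9 and 8.43 CPM of it and the libraries labelled KO had 14.1 and 4.67 CPM, so that the KO library of transplant 1 stood above both. Scaled to library totals alone the controls had 15.6 and 9.59 CPM and the libraries labelled KO 8.18 and 5.88 CPM, both below both controls, so that the order of that library depends on the scaling. Of 9 LSK and stem cell markers, 9 were lower in control MyePro than in control LSK. In KO 8 were lower in MyePro and 1 was higher. Hlf, 1 of the 9, stood between 119 and 291 CPM in the LT-HSC libraries, at 194 and 45.2 CPM in control and KO LSK and at 13.6 and 5.90 CPM in control and KO MyePro. Summed, the 9 stood at 458 to 863 CPM in LT-HSC, below the 1778 and 1518 CPM of control and KO LSK. Only LT-HSC RNA was amplified, so levels in LT-HSC and LSK may not be comparable. Mpo, a granule enzyme of myeloid progenitors, stood at 6408 and 2120 CPM in control and KO MyePro against 2027 and 996 CPM in control and KO LSK.

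The mitochondrial ribosome makes the few proteins encoded by mitochondrial DNA, all of them membrane subunits of the respiratory chain and of ATP synthase. Its ribosomal RNAs are transcribed from mitochondrial DNA, whereas all of its proteins are encoded in the nucleus, made in the cytosol and imported. Some of these proteins have bacterial relatives and sit around the RNA core, and others are specific to mitochondria. Hematopoietic stem cells are known for low mitochondrial activity, which increases as they become progenitors. Nuclear genes for mitochondrial proteins often carry promoter sites for the factors NRF-1, GABP (an ETS-family factor) and YY1.

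The promoters are shown as a description of the set, and no relation between a motif and a gene's level was tested. RefSeq promoter windows of build GRCm38.p6, which run from 250 bases before to 50 bases after each start, were matched for 67 of the 76 genes (73 windows). Both strands were searched for the NRF-1 motif (GCGCA and GCGC with any base between them), the ETS motif that GABP binds (CCGGAAG), AANATGGC (YY1) and TATAAA (the TATA box). The NRF-1 motif was found in 12 of the 73 windows (16.4%), against 4.60% of all 32851 windows and 6.38% of the 21262 windows of protein-coding genes. The ETS motif was in 24 windows (32.9%), against 8.86% and 11.6%. The YY1 motif was in 20 windows (27.4%), against 6.05% and 6.37%. These windows include the 50 bases after the start. Many member windows held their YY1 match only there, among them those of Mrpl37 and Mrpl42. The shares are thus not those of sites before the start. TATAAA was in 5 windows (6.85%), against 13.6% and 12.6%. No member window had motifs that shared bases. The member windows were also richer in G and C, with a median of 58.3% against 56.3% in windows of protein-coding genes, and held a median of 21 CpG pairs against 13. The part of base composition in the motif shares was not tested.

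The 250 bases before the start are printed for Mrpl12, which holds an NRF-1 match, for Mrpl52, which holds an ETS match, and for Mrps36, which holds neither nor a YY1 match, in these bases or in the whole window. They were chosen because these genes stand at the extremes of the comparisons below and no other annotated gene overlaps these bases. Capitals mark the motif, and positions are counted back from the start. The Mrpl12 stretch is chr11:120484387-120484636 on the plus strand, with the NRF-1 match, read on the opposite strand, beginning at position -81. The Mrpl52 stretch is chr14:54426659-54426908 on the plus strand, with the ETS match, also on the opposite strand, beginning at -47 (the whole window holds another after the start). The Mrps36 stretch is chr13:100744660-100744909 on the minus strand.
Mrpl12: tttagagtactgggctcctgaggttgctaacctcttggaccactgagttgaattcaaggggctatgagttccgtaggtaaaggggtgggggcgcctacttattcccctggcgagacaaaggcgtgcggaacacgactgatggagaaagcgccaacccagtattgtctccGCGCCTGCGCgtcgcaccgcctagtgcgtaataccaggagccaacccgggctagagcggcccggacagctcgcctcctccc
Mrpl52: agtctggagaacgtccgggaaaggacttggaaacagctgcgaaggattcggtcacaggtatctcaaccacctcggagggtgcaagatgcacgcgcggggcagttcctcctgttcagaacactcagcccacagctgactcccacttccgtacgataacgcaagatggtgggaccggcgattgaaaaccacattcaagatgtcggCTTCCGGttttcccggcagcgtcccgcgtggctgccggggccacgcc
Mrps36: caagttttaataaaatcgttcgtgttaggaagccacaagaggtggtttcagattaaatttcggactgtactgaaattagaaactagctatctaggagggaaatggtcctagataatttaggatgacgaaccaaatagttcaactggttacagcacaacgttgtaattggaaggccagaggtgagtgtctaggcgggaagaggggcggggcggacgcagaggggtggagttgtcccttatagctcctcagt
A match describes the letters in the window and is not evidence that a factor binds there.

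Of the 76 genes, 74 averaged 5 CPM or more in every LSK and MyePro comparison. The exceptions were Mrpl53 and Mrps23. Mrpl53, a protein at the base of the stalk, had 0 counts in 3 libraries and 1 in KO MyePro. Its span overlaps Ccdc142. Mrps23, a small-subunit protein, had 18 and 13 counts in control and KO LSK and 37 and 11 in control and KO MyePro, and its span overlaps Cuedc1. Whether the counting used strand is not given in the sources used here, and reads of overlapping genes may have been counted for neither or for the other gene. In all, 24 of the 76 spans overlap another annotated gene, 19 of them a protein-coding gene. Pseudogene entries were small: Mrpl23-ps1 had 43 to 157 counts per library, Mrpl48-ps 4 to 6 and Mrps36-ps1 6 to 24. Exon lengths were not available, so levels are compared between libraries and never between genes.

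In control cells the mitochondrial ribosomal protein genes were higher in MyePro than in LSK almost without exception. Their share of all gene counts was 0.383% in control LSK (95% Wilson interval 0.380% to 0.386%) and 0.521% in control MyePro (0.518% to 0.524%), where the intervals cover counting error only. After TMM scaling the log2 ratio of MyePro to LSK was above 0 for 72 of 74 genes, with a median of 0.45 and a range from -0.15 to 0.94. Among all 10059 genes that averaged 5 CPM or more, 55.1% were above 0 and the median was 0.05. The 95% counting interval lay above 0 for 69 of the 74 genes, against 40.2% of all genes, and below 0 for 1, against 31.5%. No member was 2-fold apart, against 10.2% of all genes. The increase was thus spread over the set and modest for each gene.

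Mrps36 had the highest ratio. Its product was named as a small-subunit protein and is now known as a part of the 2-oxoglutarate dehydrogenase complex. Mrps36 (ENSMUSG00000061474, GRCm38.p6 chr13:100735940-100744659) stood at 17.7 CPM in control LSK and 34.1 CPM in control MyePro, a log2 ratio of 0.94 (counting interval 0.73 to 1.15). Mrps18b, a small-subunit protein related to bacterial S18, went from 18.1 to 34.6 CPM (0.92). Mrpl52 (chr14:54426909-54429750), a large-subunit protein without a bacterial relative, went from 73.3 to 134 CPM (0.87). Mrpl22 (chr11:58170043-58179580), which lines the exit of the peptide tunnel, went from 37.0 to 66.9 CPM (0.85). At the other end, Mrpl24, which also sits at the tunnel exit, went from 56.2 to 50.7 CPM (-0.15, interval -0.28 to -0.02), and Mrps6 from 19.8 to 19.3 CPM (-0.04, interval -0.26 to 0.19). Mrpl10, at the base of the stalk, had a ratio of 0.11 and Mrps33 had 0.15, with intervals of -0.01 to 0.23 and -0.03 to 0.34. The spans of Mrpl24 and Mrps6 overlap Rrnad1 and Slc5a3, and that of Mrps18b, among the highest, overlaps Gm16279. Whether reads of these genes entered the counts was not tested. Among the 52 members whose spans overlap no other gene, a group chosen after seeing the data, 52 were above 0, against 55.1% of all genes.

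**Figure D1:**
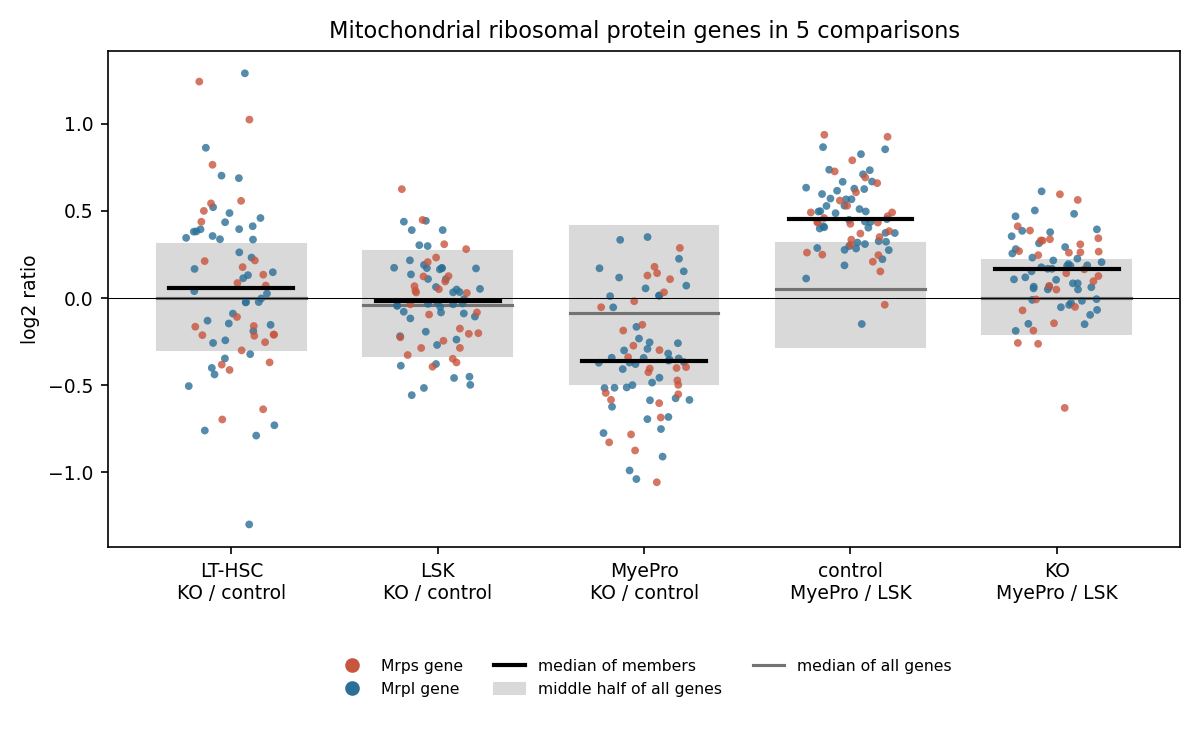
Log2 ratio (vertical axis) of each mitochondrial ribosomal protein gene in 5 comparisons, with Mrps genes in red, Mrpl genes in blue, the median of members in black, and the middle 50% and median of all genes in grey. In the control MyePro to LSK comparison 72 of 74 points lie above 0, and in the KO to control comparison of MyePro 57 of 74 lie below 0.

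In MyePro cells most of these genes were lower in KO than in control. Their share of gene counts was 0.428% in KO MyePro (Wilson interval 0.424% to 0.432%), below the 0.521% of control MyePro. The log2 ratio of KO to control was below 0 for 57 of 74 genes, against 55.3% of all 10244 genes, with a median of -0.36 against -0.08. The counting interval lay below 0 for 54 genes, against 44.4% of all genes, and above 0 for 8, against 35.2%. At least 2-fold lower were 2 members, against 7.99% of all genes, and 0 were at least 2-fold higher, against 11.3%. Most members thus lay below 0, with 17 of 74 above it, and few differed by as much as 2-fold.

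The lowest ratio was that of Mrps18b (ENSMUSG00000024436, chr17:35910380-35916440), which stood at 34.6 CPM in control MyePro and 16.5 CPM in KO MyePro, a log2 ratio of -1.06 (counting interval -1.30 to -0.83). Mrpl12 (ENSMUSG00000039640, chr11:120484637-120488754), whose product forms the mobile stalk that recruits translation factors to the ribosome, stood at 107 and 51.9 CPM (-1.04, interval -1.17 to -0.91). Only these 2 passed 2-fold, and the count was 1 with scaling to library totals, with libraries thinned to equal depth, and among members without an overlapping gene. The thinned ratio of Mrpl12 was -0.87.

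Mrpl50 (chr4:49512597-49521083), a large-subunit protein specific to mitochondria, stood at 100.2 and 50.4 CPM (-0.99). Mrpl37, of the same class, stood at 82.9 and 44.1 CPM (-0.91). Genes on the other side of 0 were fewer and closer to it. The highest was Mrpl24 at 50.7 and 64.6 CPM (0.35, interval 0.21 to 0.49), followed by Mrpl33 at 75.8 and 95.5 CPM (0.33), Mrps33 at 29.6 and 36.1 CPM (0.29) and Mrpl14 at 33.9 and 39.6 CPM (0.23). Mrpl24 had the lowest ratio in the control step and the highest here, and both ratios use the same control MyePro library, so that its value there enters both.

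**Figure D2:**
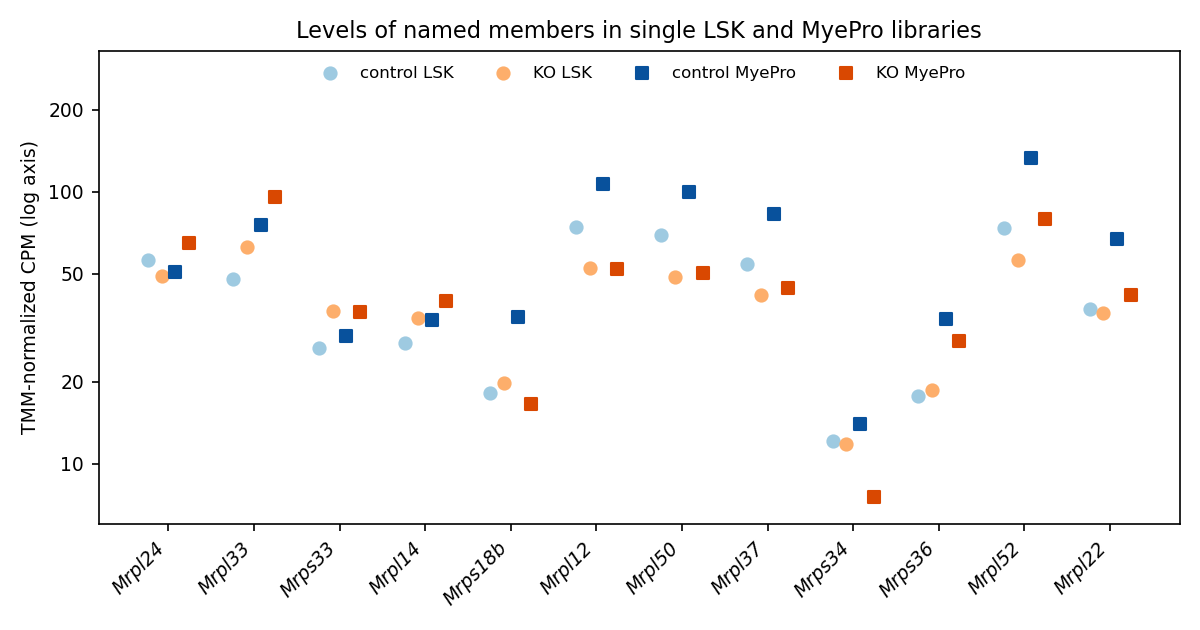
TMM-normalized CPM (vertical log axis) of named mitochondrial ribosomal protein genes, with a point for each of the control and KO LSK and MyePro libraries (1 library each, so no error bars). Mrps18b, Mrpl12 and Mrpl50 stand higher in control MyePro (34.6, 107 and 100.2 CPM) than in the other 3 libraries.

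Other features of the KO MyePro library moved with this shift. The summed level of 9 erythroid markers was 3459 CPM in control MyePro and 432 CPM in KO MyePro. Klf1 stood at 248 and 21.3 CPM and Epor at 90.9 and 17.0 CPM. Not all erythroid markers were lower: of the 7 counted, 6 were at least 2-fold lower in KO and 1 was at least 2-fold higher. The summed level of 8 megakaryocyte markers was 173 and 1528 CPM, that of 8 mature neutrophil markers 26.2 and 618 CPM, and that of 7 myeloid progenitor markers 10949 and 6332 CPM. Of these 7 myeloid progenitor markers, 5 were lower in KO and 2 higher, with log2 ratios from -1.60 to 1.46 and a median of -0.37. Mpo, whose levels are given above, accounted for a large part of the difference between their sums. Macrophage and dendritic markers (8 genes) summed to 49.7 and 346 CPM, T and NK cell markers (9 genes) to 207 and 640 CPM, mast cell and basophil markers (6 genes) to 707 and 1289.8 CPM, and stromal and endothelial markers (8 genes) to 85.0 and 219.7 CPM. Of the 6 mast cell and basophil markers, 3 were higher in KO and 3 lower, with log2 ratios from -1.12 to 3.94 and a median of 0.18. B cell markers (7 genes) summed to 20.2 and 5.98 CPM. Among the markers at 0 were Ms4a1, Ebf1, Camp, Siglech and Trbc2 in both MyePro libraries, and Cd3g, Cd8a and Lepr in KO MyePro. The 9 LSK and stem cell markers summed to 772 and 793 CPM, but of the 7 counted 3 were at least 2-fold higher in KO and 2 at least 2-fold lower, with log2 ratios from -1.68 to 3.20. The mitochondrial ribosomal RNAs, which lack the long polyA tails that selection favours, were higher in the KO library, at 313 and 1296 CPM for mt-Rnr1 and 446 and 1922 CPM for mt-Rnr2. The part of these differences in the lower level of the ribosomal protein genes was not tested, and in these bulk libraries fewer cells of a type and less RNA per cell cannot be told apart.

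In KO cells the step from LSK to MyePro was smaller. The ratio of KO MyePro to KO LSK was above 0 for 55 of 74 genes, against 49.9% of all 10360 genes, with a median of 0.17 against -0.00076. The counting interval lay above 0 for 33 genes, against 24.6% of all genes, and below 0 for 2, against 24.3%. No member was 2-fold apart, against 4.68% of all genes. With library totals in place of TMM factors, 40 of the 74 were above 0, the members' median was 0.04 and that of all genes -0.13. The distance between members and all genes was 0.17 either way.

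The step was larger in control than in KO for 68 of the 74 genes, against 53.2% of all genes, and the median difference between the steps (KO minus control) was -0.33 against -0.04. The difference compares 4 single libraries and was not tested. For each gene it equals the KO ratio in MyePro minus the KO ratio in LSK. It therefore restates those ratios and is not a further result. The control MyePro library enters both the control step and the MyePro KO ratio of every member. Mrps18b differed most, from a log2 step of 0.92 in control to -0.26 in KO. Mrps34, a small-subunit protein specific to mitochondria, had the lowest step in KO, from 11.8 CPM in LSK to 7.57 CPM in MyePro (-0.63, interval -1.10 to -0.18), where its control step was 0.21. Mrps6 (-0.26) and Mrpl49 (-0.19) followed, with intervals that reached 0. The largest steps in KO were those of Mrpl33 (62.5 to 95.5 CPM, 0.61), Mrps36 (18.6 to 28.2 CPM, 0.59), Mrps12 (46.0 to 67.9 CPM, 0.56) and Mrpl52 (55.9 to 79.3 CPM, 0.50). Mrps36 and Mrpl52 were thus among the 4 largest steps in both genotypes. The 6 genes with a larger step in KO included Mrpl24, with -0.15 in control and 0.39 in KO.

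**Figure D3:**
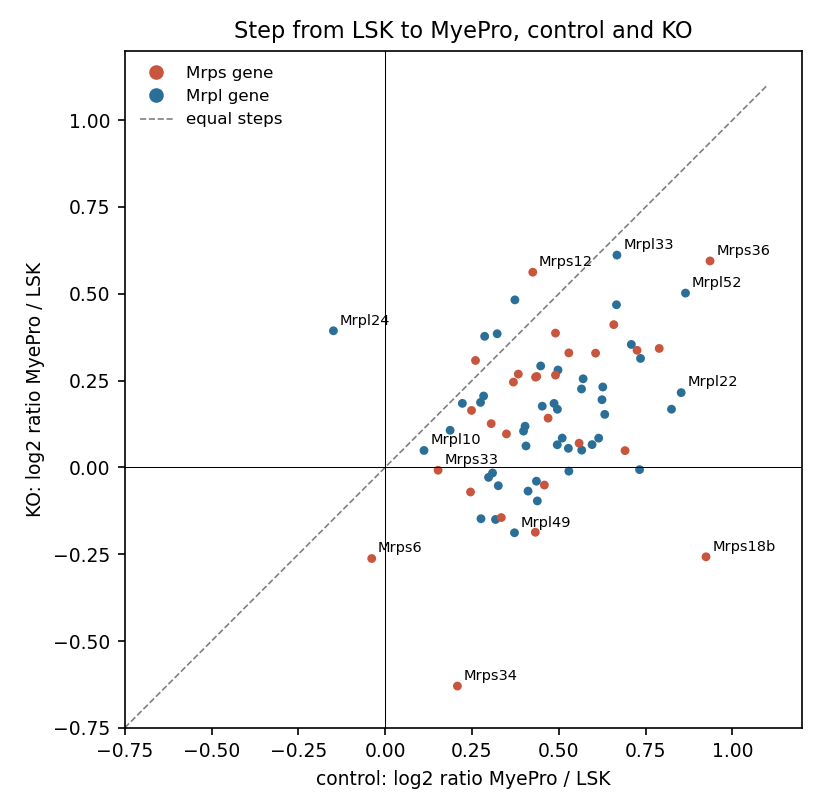
Log2 ratio of MyePro to LSK for each mitochondrial ribosomal protein gene in control (horizontal axis) and KO (vertical axis), with the line of equal steps. Below that line lie 68 of the 74 genes, and Mrps18b lies farthest below it at 0.92 and -0.26.

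In LSK cells the genes were spread around 0. Their share of gene counts was 0.383% in control and 0.419% in KO (Wilson interval 0.414% to 0.424%). The log2 ratio of KO to control was above 0 for 36 of 74 genes, against 46.4% of all genes, and below for 38, against 53.6%, with a median of -0.02 against -0.04 over all 10311 genes. The counting interval lay above 0 for 14 members, against 28.6% of all genes, and below 0 for 21, against 35%. No member was 2-fold apart, against 10.4% of all genes. With library totals, 52 of 74 were above 0 and the median was 0.12, as the median of all genes moved from -0.04 to 0.09.

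The highest ratio was that of Mrps21, a small-subunit protein with a bacterial relative, at 43.0 CPM in control LSK and 66.4 CPM in KO LSK (0.62, interval 0.45 to 0.80). Mrps33 (26.6 and 36.3 CPM, 0.45), Mrpl4 (70.9 and 96.5 CPM, 0.44) and Mrpl13 (70.7 and 95.9 CPM, 0.44) came next. The lowest were Mrpl19 (55.5 and 37.7 CPM, -0.56), Mrpl50 (69.4 and 48.5 CPM, -0.52), Mrpl12 (73.9 and 52.3 CPM, -0.50) and Mrpl23 (40.8 and 29.6 CPM, -0.46). Mrpl12 and Mrpl50 were thus among the 4 lowest in both LSK and MyePro, and Mrps33 among the 4 highest in both. Across the 74 genes the KO ratios in LSK and MyePro correlated at Pearson's r = 0.683 and Spearman's rho = 0.712, against 0.745 and 0.726 over 9979 genes. These are descriptions over genes that share the libraries, and members did not stand apart from other genes in this respect.

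Marker sums differed between the LSK libraries too. Erythroid markers summed to 810 CPM in control and 116 CPM in KO, mature neutrophil markers to 11.3 and 172 CPM, T and NK cell markers to 207 and 585 CPM, and LSK and stem cell markers to 1778 and 1518 CPM. Myeloid progenitor markers summed to 3159 and 2757 CPM and megakaryocyte markers to 686 and 718 CPM. Macrophage and dendritic markers summed to 92.8 and 221 CPM, B cell markers to 25.2 and 2.87 CPM, mast cell and basophil markers to 599 and 861 CPM, and stromal and endothelial markers to 117 and 218 CPM. Single markers differed more than some of these sums: megakaryocyte log2 ratios ran from -3.20 to 3.44, and 4 of the 9 LSK and stem cell markers were at least 2-fold lower in KO. Of the 7 myeloid progenitor markers, 5 were higher in KO and 2 lower, although their sum was lower. Their median log2 ratio was 0.51, with a range from -1.03 to 2.29. Of the 6 mast cell and basophil markers, 3 were higher in KO and 3 lower, with log2 ratios from -3.92 to 2.78. Among the markers at 0 were Ms4a1 and Ebf1 in both LSK libraries, S100a8, S100a9, Retnlg, Cd3e, Cd3g and Lepr in control, and Slc4a1, Ltf, Siglech and Cd3d in KO. The mitochondrial ribosomal RNAs were lower in KO LSK, at 784 and 499.6 CPM for mt-Rnr1. Their part in the LSK ratios was not tested.

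In LT-HSC no mitochondrial ribosomal protein gene passed the threshold. Of the 72 genes that reached 1 CPM in 2 or more libraries, 0 had an adjusted p under 0.05 (edgeR quasi-likelihood test, Benjamini-Hochberg), where 0.0156% of all 12844 genes passed. At an unadjusted p under 0.05 the count was also 0, against 2.29% of all genes, but it was 3 without the control library of transplant 1 and 1 without the KO library of transplant 1. DESeq2 called 0 members, against 0.109% of all genes. With the transplant as a block 0 members were called, against 0.0311%. The log2 fold change was above 0 for 38 members, against 50.3% of all genes, and below for 34, with a median of 0.06 against 0.00301 over all genes and a range from -1.30 to 1.29. With library totals the median was -0.32, and that of all genes -0.35. Both KO libraries lay below both controls for 9 members (13.9% of all genes) and above both for 16 (13.8%).

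The members were low in these amplified libraries. Their share of gene counts was 0.0775% and 0.0752% in the controls and 0.0417% and 0.0851% in KO, with Wilson intervals within 0.001 percentage points. Mitochondrial ribosomal RNA took from 45.1% to 62.4% of the gene counts. After TMM scaling the members summed to 629 and 650 CPM in the controls and 692 and 659 CPM in KO, groups that do not overlap but differ by little. The median standard error of a member's log2 fold change was 0.51, and differences of the median size seen in MyePro were not detectable for single genes at this precision. Another 3 members were under the minimum. Mrpl53 had 0 counts in all 4 libraries, Mrps23 had 0 in 3 libraries and 4 in the KO library of transplant 2, and Mrps34 had 0 in both controls and 4 and 2 in KO.

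The members with the smallest p-values among those whose KO libraries both lay on the same side of both controls are given as descriptions, 3 per direction. Mrps14, in the head of the small subunit, had 17.5 and 15.3 CPM in control libraries and 23 and 32.6 CPM in KO, a log2 fold change of 0.76 ± 0.33 (SE, n = 2 per group, adjusted p = 0.999, edgeR). Mrpl4, near the wall of the peptide tunnel, stood at 13.9 and 12.5 CPM and at 23.9 and 18.6 CPM (0.69 ± 0.34). Mrps12, in the decoding centre, stood at 3.89 and 1.83 CPM and at 7.36 and 4.26 CPM (1.02 ± 0.67). On the lower side were Mrpl23, at the tunnel exit, at 6.07 and 2.73 CPM against 2.20 and 1.38 CPM (-1.30 ± 0.75), Mrps7, in the head of the small subunit, at 13.5 and 10.5 CPM against 8.71 and 6.69 CPM (-0.64 ± 0.44), and Mrpl28, at 6.26 and 5.57 CPM against 4.11 and 3.02 CPM (-0.73 ± 0.57). All of these had the same adjusted p of 0.999 in the edgeR test. Mrps18b stood at 1.36 and 1.59 CPM and at 0.766 and 1.63 CPM, and Mrpl12 at 3.93 and 4.07 CPM and at 7.20 and 3.32 CPM, so that both overlapped between groups.

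The transplants did not move alike. The median log2 ratio of KO to control was 0.11 in transplant 1 and -0.03 in transplant 2, and across the 72 members the ratios of the transplants correlated at r = 0.0431, against 0.0237 over all genes. Mrpl22 showed the widest gap, with 178 and 155 counts in control and KO of transplant 1 and 13 and 477 counts in transplant 2.

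**Figure D4:**
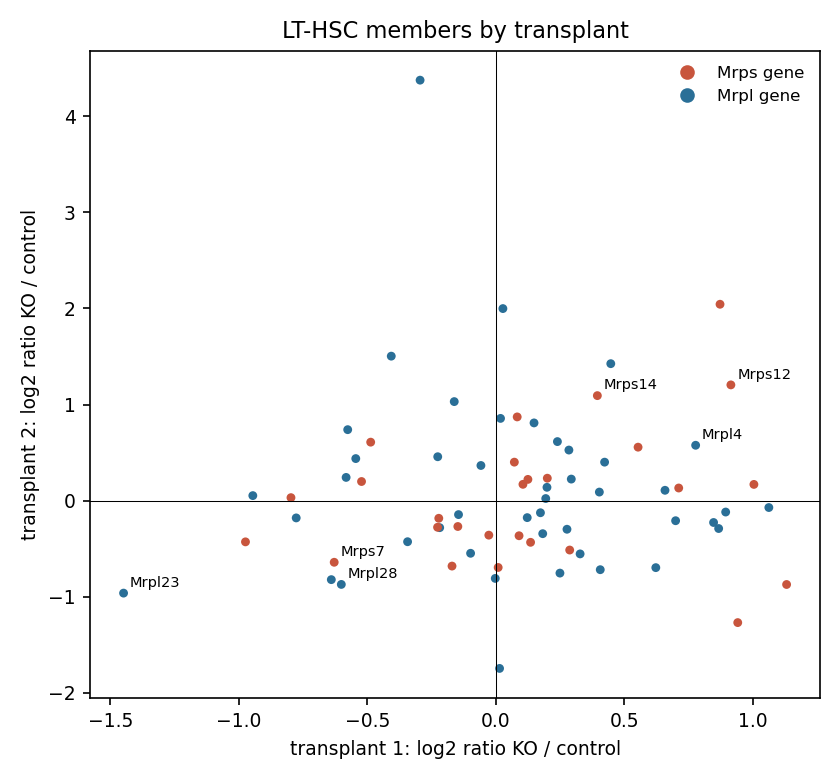
Log2 ratio of KO to control in LT-HSC for each mitochondrial ribosomal protein gene in transplant 1 (horizontal axis) and transplant 2 (vertical axis). The 72 points form a cloud around 0 (r = 0.0431).

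The subunits were alike in most comparisons. In MyePro the median KO ratio was -0.40 over 28 Mrps genes and -0.36 over 46 Mrpl genes, and in the control step it was 0.43 and 0.47. In LSK the medians were -0.0035 and -0.02, and in LT-HSC -0.11 (27 genes) and 0.11 (45 genes). The symbols do not give the subunit without exception, since the products of Mrps18a and Mrps30 sit in the large subunit.

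Split by origin, the 8 counted small-subunit proteins specific to mitochondria had the lowest medians, at -0.55 in MyePro and -0.28 in LSK, with 7 of 8 below 0 in each. Mrps33 was the exception in both. The 17 small-subunit proteins with bacterial relatives had medians of -0.30 in MyePro (12 below 0) and 0.05 in LSK (5 below 0). The 31 large-subunit proteins with bacterial relatives had medians of -0.37 in MyePro (22 below 0) and -0.04 in LSK. The 17 counted large-subunit proteins specific to mitochondria had medians of -0.35 in MyePro (15 below 0) and 0.03 in LSK, and 17 of 17 had a larger step in control than in KO. Among all genes 55.3% were below 0 in MyePro and 53.6% in LSK, and 53.2% had a larger step in control. These classes were not tested against each other.

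By region, the stalk proteins went different ways in MyePro KO. Mrpl12 stood at -1.04 and Mrpl54 at -0.25, while Mrpl10 stood at 0.15 and Mrpl11, near the site where translation factors bind, at 0.01. Of the 6 proteins of the central protuberance, Mrpl38 (-0.51), Mrpl18 (-0.35), Mrpl40 (-0.32) and Mrpl46 (-0.26) were below 0, and Mrpl55 (0.01) and Mrpl48 (0.07) had intervals that spanned 0. At the tunnel exit Mrpl22 (-0.68), Mrpl47 (-0.59), Mrpl23 (-0.37), Mrpl17 (-0.29), Mrpl45 (-0.23) and Mrpl44 (-0.05) stood below 0 and Mrpl24 above. Mrpl45 ties the ribosome to the inner membrane.

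The 3 relatives of bacterial S18 differed from one another. Mrps18a, in the large subunit, stood at 49.3 and 40.4 CPM in control and KO LSK and at 64.3 and 48.7 CPM in control and KO MyePro. Mrps18b stood at 18.1, 19.8, 34.6 and 16.5 CPM in the same order, highest in control MyePro. Mrps18c, the small-subunit protein closest in place to bacterial S18, stood at 34.1, 36.4, 40.9 and 45.2 CPM. The KO ratio in MyePro was thus -0.40 for Mrps18a, -1.06 for Mrps18b and 0.14 for Mrps18c (interval -0.02 to 0.30).

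Other genes of mitochondrial translation and biogenesis were taken from lists chosen with earlier results of these data known. Their KO ratios in MyePro were also mostly below 0. Among all genes 55.3% were below 0 in MyePro, with a median of -0.08, and 7.99% were at least 2-fold lower. In LSK 53.6% of all genes were below 0, with a median of -0.04. Of 6 mitochondrial ribosomal proteins under other symbols, 5 were below 0 (median -0.41), with Ptcd3, a small-subunit protein, at 147 and 67.1 CPM (-1.13). Of 22 ribosome assembly factors, 16 were below 0 (median -0.17), with Fastkd2, an RNA-binding protein, at 63.5 and 27.5 CPM (-1.20) and the GTPase Noa1 at 112 and 54.1 CPM (-1.05). Of 15 translation factors, 14 were below 0 (median -0.74), with the elongation factor Gfm1 at 125 and 62.6 CPM (-0.99).

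Of 17 mitochondrial aminoacyl-tRNA synthetases, 16 were below 0 in MyePro (median -0.61) and 16 in LSK (median -0.38). The exception in MyePro was Lars2, at 2043 and 9059 CPM, whose level was also higher in control LSK (11220 CPM) than in KO LSK (3057 CPM), in each case the library with more mitochondrial ribosomal RNA. Of 13 genes for mitochondrial DNA transcription and RNA processing, 10 were below 0 (median -0.60) and 4 were at least 2-fold lower: Pnpt1, an RNA-degrading enzyme (-1.21), Peo1, the mitochondrial DNA helicase (-1.08), Elac2, which cleaves tRNA precursors (-1.03), and Tfb2m, a transcription factor of mitochondrial DNA (-1.02). Of 22 import genes, 19 were below 0 (median -0.62), with the chaperonin Hspd1 at 897 and 271 CPM (-1.73) and Hspa9 at 782 and 374 CPM (-1.06). In LT-HSC 0 genes of these lists were called in the edgeR test, against 0.0156% of all genes. In the same test 1 gene of the lists, 1 of 17 aminoacyl-tRNA synthetase genes, had an unadjusted p under 0.05, against 2.29% of all genes.

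Of 10 regulators of mitochondrial biogenesis, 8 had a KO ratio in MyePro below 0 (median -0.47). Myc, a transcription factor of growth genes, stood at 502 and 186 CPM (-1.43), Pprc1, a coactivator, at 139.9 and 57.5 CPM (-1.28), and Gabpb2, a GABP subunit, at 100.3 and 43.4 CPM (-1.21). Mycn, 1 of the 2 above 0, stood at 8.33 and 48.7 CPM (2.53). The factors whose motifs were searched above stood at -0.46 (Nrf1), -0.47 (Gabpa) and -0.06 (Yy1).

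In KO against control, the mRNAs that the mitochondrial ribosome translates stood above 0. Of 12 mitochondrially encoded mRNAs, 11 were above 0 in MyePro KO (median 0.70) and 12 in LSK KO (median 0.62), and 12 were above 0 in the control step (median 0.46), as 72 of 74 members were. In the KO step 11 were above 0 (median 0.57). Among all genes 46.4% were above 0 in LSK KO, 55.1% in the control step and 49.9% in the KO step, and 55.3% were below 0 in MyePro KO. In LT-HSC their median was 0.81, with 1.66 in transplant 1 and -0.32 in transplant 2. The 2 ribosomal RNAs had medians of 2.08 in MyePro KO, -0.73 in LSK KO, -1.42 in the control step and 1.39 in the KO step. Cytosolic ribosomal protein genes (82 counted) had medians of -0.25 in MyePro KO, -0.19 in LSK KO and 0.21 in the control step, where the mitochondrial set had -0.36, -0.02 and 0.45. The difference between the steps was -0.08 for the cytosolic set and -0.33 for the mitochondrial set.

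**Figure D5:**
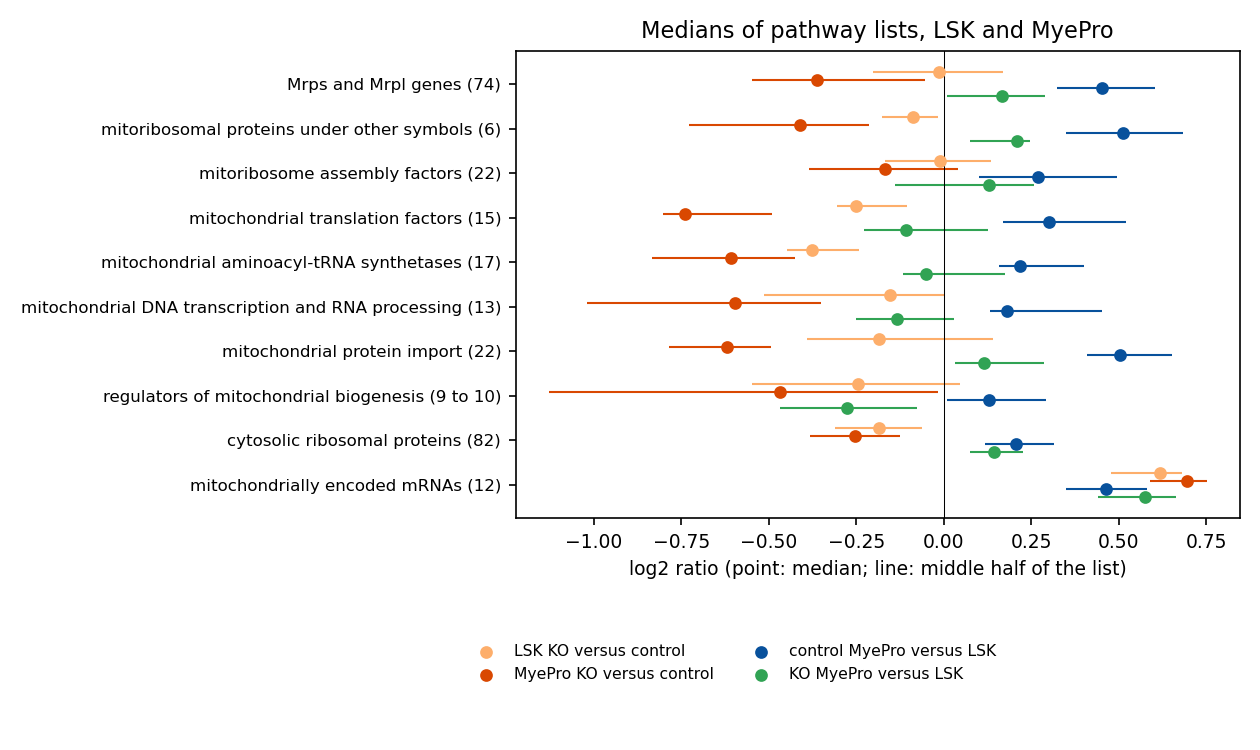
Median log2 ratio (point) and middle 50% (line) of each gene list in the LSK and MyePro comparisons (horizontal axis), with the number of genes counted in brackets. In MyePro KO against control the nuclear mitochondrial lists lie below 0, from -0.17 for assembly factors to -0.74 for translation factors, and the mitochondrially encoded mRNAs lie at 0.70.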

How the data were processed

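RNA-seq counts from 8 libraries were used (4 of LSK and MyePro cells, 4 of LT-HSC). The 6 ChIP-seq samples were not analysed here. The authors deposited raw gene counts, by symbol (LSK, MyePro) or Ensembl identifier (LT-HSC, of which 37607 were matched to a symbol). Per the labels' protocols, polyA selection was done in 2 rounds, and only RNA of LT-HSC was amplified. Per the submitters' processing notes, tools included TopHat2 and HTSeq 0.6.0 with build mm10. No annotation or strand setting is given in the sources used here. Reads without a feature, from 2.40% to 6.25% of the LSK and MyePro files and from 16.7% to 26.0% of the LT-HSC files, and other entries without a gene name were not used.

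The comparison of LT-HSC libraries used edgeR 4.0.16 in R 4.3.3 (TMM factors, at least 1 CPM in at least 2 libraries, quasi-likelihood test, two-sided, Benjamini-Hochberg over all genes tested, threshold 0.05), with DESeq2 1.42.0 as an alternative. Per the labels the numbers mark shared transplants, so they pair the libraries, and deviations of same-numbered libraries correlated at 0.292 over 12844 genes. LSK and MyePro libraries, with 1 per group, were not tested: log2 ratios of TMM-normalized CPM used a prior count of 2, genes needed a mean of at least 5 CPM, and 95% intervals (exact, conditional binomial) cover counting error only. The code was tested on simulated data, with changed genes at higher levels than the median member in LT-HSC (7.20 CPM). That run does not show how the LT-HSC test performs at the members' level and spread.

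The members, lists and comparisons were chosen with earlier results of these data known. Members named in the text were the 4 highest and 4 lowest of each LSK or MyePro comparison, the 3 smallest p-values per direction in LT-HSC among those with both KO libraries on the same side, the Mrps18 family, members of the stalk, protuberance and tunnel exit, and those below the minimum. Up to 3 genes per pathway list were named, those past 2-fold first. Named after their values were seen were Mrpl22 in LT-HSC, the last of the 4 genes past 2-fold in 1 list, and Nrf1, Gabpa and Yy1. Levels per length were planned and not computed, as exon lengths were not available.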

Additional observations from a re-analysis of the deposited data

Results flagged for a closer look

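Mrpl24, a protein at the exit of the peptide tunnel, moved in opposite directions in the 2 populations. Its log2 ratio of KO to control was -0.19 in LSK (56.2 and 49.1 CPM, counting interval -0.38 to -0.01) and 0.35 in MyePro (50.7 and 64.6 CPM, interval 0.21 to 0.49). Each value compares 1 library with 1 library, and the difference was not tested. The span of Mrpl24 (chr3:87918131-87923450, GRCm38.p6) overlaps Rrnad1, and whether reads of that gene entered its counts was not tested.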

How the results depend on the processing

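The LT-HSC count of called members was 0 under every alternative run (other size factors including spike-ins, no low-count filter, a mean of at least 5 CPM, DESeq2, leaving out each library, members without overlapping genes). Leaving out each library gave counts of 0 to 0 and a median from -0.01 to 0.13. With the transplant as a replicate block the count was 0 and the median 0.07, with 1 member at an unadjusted p under 0.05, and no call changed. That count was 3 without the control library of transplant 1, 1 without the KO library of transplant 1 and 1 with a mean of at least 5 CPM. With library totals the LT-HSC median moved to -0.32, while that of all genes moved to -0.35. In MyePro KO against control the count of members past 2-fold went from 2 to 1 with library totals, to 1 with thinned counts and to 1 among members without an overlapping gene. That last alternative, and those for the difference between steps, were chosen after seeing the data. Members with a smaller step in KO numbered from 67 to 71 of 74 under other scalings, a smaller prior count, a higher minimum and thinning. They numbered 69 of 76 without a minimum and 48 of 52 without overlapping genes. The share of all genes was 61.0% with library totals, the setting that gave 71, and 53.2% to 55.6% in the other settings with 74 members. That share was 47.1% without a minimum and 53.2% beside the 48 of 52. The spread between LT-HSC pools limits that comparison (median standard error 0.51 over members and over all genes), and LSK and MyePro have no replicates. Mrpl53, Mrps23 and Mrps34 are limited by few or no counts in LT-HSC, although those libraries were the deepest. The reason for these low counts was not tested.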
